A study of Mus musculus with 20 samples.

Results

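Phosphofructokinase sets the pace of glycolysis, and its genes were described here in hearts of mice made iron deficient and anemic by diet. The set comprised 7 genes of the 23420 in the count table, taken by symbol: the PFK-1 subunits *Pfkl* (liver type), *Pfkm* (muscle type) and *Pfkp* (platelet type), and the PFKFB enzymes *Pfkfb1*, *Pfkfb2*, *Pfkfb3* and *Pfkfb4*. The family was chosen by the measured diet difference of *Pfkl*, which was consistent over these same mice, so the diet difference of its members is given as a description. Counts of members that passed a threshold are printed beside the share of all genes, and nothing is read from them.

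RNA was sequenced from whole hearts of 20 male wild type C57BL/6 mice (C57BL/6J in the study's methods) aged 9 weeks. Of these, 10 ate a control diet, and 10 (IDA mice) ate an iron-deficient diet for 6 weeks from 3 weeks of age. The labels put the iron of the deficient diet below 2 ppm in one field and above it in another. The study's methods give a range from 2 ppm upwards, and call the control diet iron-adjusted. Housing in the study's methods was 2 to 6 mice per cage. Which of these mice shared a cage or a litter is not stated, so mice of a diet may not be independent.

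PFK-1 commits fructose 6-phosphate to glycolysis, and it works as a tetramer whose subunits differ between tissues, with the muscle type dominant in striated muscle. PFKFB enzymes make and degrade fructose 2,6-bisphosphate, the strongest activator of PFK-1. The heart isoform is encoded by *Pfkfb2*, the classical liver and muscle isoforms by *Pfkfb1*, the inducible isoform by *Pfkfb3* and the testis isoform by *Pfkfb4*. *Pfkl*, *Pfkfb3* and *Pfkfb4* are among the genes described as targets of hypoxia-inducible factor (HIF), which binds DNA at a short core.

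Total read pairs on genes were 6797180 to 8960688 in control hearts (median 7902932) and 6682177 to 7833916 in IDA hearts (median 6806177). Genes with at least 1 CPM (read pairs scaled to the library total) in at least 10 mice, 13590 in all, entered the fit across all genes. All 8 cardiomyocyte markers passed this filter, of which 3 were higher and 1 lower in IDA hearts, with a summed level of 4417 to 5306 CPM in control and 3882 to 5447 CPM in IDA hearts. All 6 platelet markers rose in IDA hearts (edgeR adjusted p below 0.05), from a summed 35.3 to 109 CPM to 82.1 to 368 CPM. The erythroid list was tested through only 3 of its 11 genes, which all rose, from a summed 51.6 to 126 CPM to 135 to 580 CPM. *Hba-a1* and *Hba-a2*, the alpha globins that define red cells, were listed at 0 in the table. Leukocyte markers summed to 311 to 373 CPM in control and 325 to 453 CPM in IDA hearts, with 5 of 7 tested genes higher and 1 lower. Of the remaining lists, 3 of 4 endothelial markers were lower in IDA hearts, 1 of 4 atrial markers and 2 of 4 tested skeletal muscle markers were higher, and neither of the 2 tested liver markers differed. Fibroblast and smooth muscle lists each had 1 gene higher and 1 lower. No thymus or lung marker passed the filter. In whole hearts, fewer cells of a type and less RNA per cell cannot be told apart.

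Promoters of the family were searched for the HIF core, and short stretches around 4 of the matches are shown because they mark where the members described here could be compared at the level of sequence. The core was searched as ACGTG or GCGTG on both strands in RefSeq promoters (build GRCm38.p6, 250 bases before to 50 bases after a start). All 7 members matched, with 16 promoters among them, since several have more than 1 start. Capitals mark the core in each line, which reads 5′ to 3′ along the gene. *Pfkfb3*, like *Pfkfb2*, has more than 1 start, and its line gives the distance to 1 of them.

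*Pfkl*, chr10:78009892-78009916, minus strand, 99 bases before the start: ttgtagactgGCGTGcgctccgcct

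*Pfkfb3*, chr2:11553975-11553999, minus strand, 60 bases before the start: ccgcgccgtgACGTGccaagctgtg

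*Pfkfb4*, chr9:108991775-108991799, plus strand, 117 bases before the start: gacggatgggGCGTGcttagtccaa

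*Pfkfb2*, chr1:130715828-130715852, minus strand, 21 bases before one of its starts: caagcgccccACGTGactcgcccca

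The *Pfkfb2* match lies in the palindrome CACGTG, an E-box, so other factors that read E-boxes have the same letters there. Of the 16 promoters, 6 held ACGTG, 12 held either form and 4 held neither, 3 of them of *Pfkfb1* and 1 of *Pfkm*. Among all 32851 promoters of this length, 19.6% held ACGTG and 43.8% held either form. Promoters of a gene can overlap, and 1 *Pfkm* match was counted under more than 1 start. The 16 are therefore not independent, and no enrichment is read from these shares. E-boxes also stood in the promoter of *Pfkfb3* that is not shown and in a promoter of *Pfkm*. The core stood in promoters of members that were higher (*Pfkl*, *Pfkfb4*) and of members that were lower (*Pfkfb2*, *Pfkfb3*) in IDA hearts, and a match is a description of letters, not of binding.

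The levels of the members were ordered first within each diet, which the choice of the family did not use, on the scale of RPKM (CPM per kilobase of exonic length). In control hearts *Pfkm* was the most abundant member at 172 ± 14.1 RPKM (SD, n = 10). *Pfkl* followed at 67.4 ± 4.07 RPKM. *Pfkfb2*, at 36.6 ± 6.90 RPKM, was the most abundant PFKFB gene. *Pfkp* stood beside it at 34.5 ± 2.19 RPKM, and these neighbours did not differ beyond their spread. *Pfkfb1* was at 15.9 ± 3.03 RPKM. *Pfkfb3* at 5.54 ± 1.82 RPKM and *Pfkfb4* at 4.35 ± 0.781 RPKM were the least abundant members. With the longest annotated transcript as the length, and by raw read pairs, *Pfkfb2* came before *Pfkl* in control hearts, so the order of these neighbours depends on the length used.

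Members were ranked by mean RPKM in each diet separately, and each was compared with its neighbour in that diet's own order. The comparison was an exact two-sided sign-flip permutation test on log2 levels within the same hearts. It was made 12 times over both diets, and 0.00195 is the smallest p that 10 mice allow. After adjustment over the 12, 11 passed. The exception was *Pfkfb2* over *Pfkp* in control hearts, where the ratio was 1.04 with *Pfkfb2* higher in 7 of 10 mice (exact permutation p = 0.492). *Pfkm* exceeded *Pfkl* 2.55-fold in control hearts and 2.00-fold in IDA hearts, in 10 of 10 mice each time. On the RPKM scale the order of the low-abundance pair turned between the diets. *Pfkfb3* exceeded *Pfkfb4* 1.25-fold in control hearts (9 of 10 mice, exact permutation adjusted p = 0.0107). In IDA hearts *Pfkfb4* exceeded *Pfkfb3* 1.54-fold (10 of 10 mice, exact permutation adjusted p = 0.0026). Without division by length, the ratio of *Pfkfb4* to *Pfkfb3* read pairs averaged 1.00 in IDA hearts, so this lead depends on the length used. *Pfkp* and *Pfkfb2* also took different places, since in IDA hearts *Pfkp*, at 44.4 ± 6.49 RPKM, exceeded *Pfkfb2*, at 24.97 ± 3.96 RPKM. In raw read pairs of IDA hearts the order was the opposite, with *Pfkfb2* at 1730 and *Pfkp* at 1282 on average. That the diets differ in these orders was not tested, because the choice of the family used the diet difference.

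Between the diets, the PFK-1 subunits were all higher on average in IDA hearts, by unequal amounts. *Pfkl* (chr10:77986949-78009796, minus strand, mm10), which encodes the subunit that predominates in liver, was at 232.8, 248 and 273 CPM (lowest, median and highest mouse) in control hearts. In IDA hearts *Pfkl* was at 325, 347 and 372 CPM. Every IDA heart was above every control heart. The means were 250.5 ± 15.1 and 347 ± 15.7 CPM (SD, n = 10 each), a log2 fold change of 0.47 ± 0.04 (SE) or 1.39-fold. The ranges of the diets did not overlap in this direction for 4.97% of all 13590 genes.

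*Pfkp* (chr13:6579874-6648724, minus strand), the subunit named after platelets and also made in brain and proliferating cells, was at 129, 134 and 153 CPM in control hearts. In IDA hearts *Pfkp* was at 148, 172 and 239.4 CPM, so that 9 of 10 mice were above the highest control heart and 1 lay inside the control range. The log2 fold change was 0.36 ± 0.07. IDA replicates 4 and 5 were the highest for *Pfkp* (239.4 and 198 CPM) and also for the summed leukocyte markers (429 and 453 CPM). With the leukocyte marker level as a covariate its log2 fold change was 0.32, and with the platelet marker level it was 0.58. With the erythroid marker level it was 0.27 ± 0.11. The share of *Pfkp* transcripts that came from blood cells was not tested. Exons of *Pfkp* share 276 bases with *Pitrm1*, and reads there cannot be assigned to one gene without strand.

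*Pfkm* (chr15:98092589-98132447, plus strand), the subunit of skeletal and heart muscle, was at 467, 512 and 597 CPM in control hearts. In IDA hearts *Pfkm* was at 512, 583 and 624 CPM. The diets overlapped over most of their range, with 7 IDA hearts above the control mean and 3 above the highest control heart. The log2 fold change was 0.12 ± 0.05, the smallest in size of the family.

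**Figure D1:**
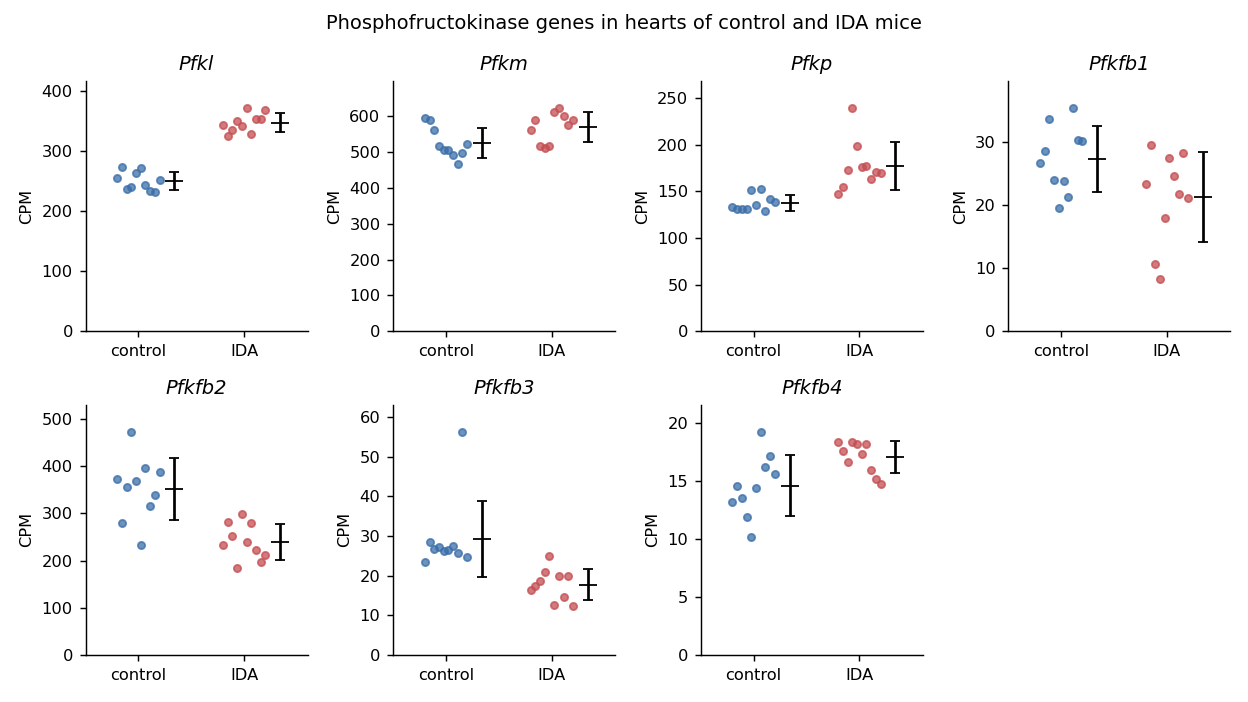
Level of each of the 7 genes (CPM, y axis from 0) in 10 control and 10 IDA hearts, with a point for each mouse and the mean ± SD beside it. *Pfkl* is the member whose diets do not overlap, and 1 control heart stands high for *Pfkfb3* at 56.3 CPM.

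The unscaled read pairs placed *Pfkm* apart from the other members. *Pfkm* had 3892 to 4240 read pairs in all 20 hearts, although the library totals ran from 6682177 to 8960688. Its coefficient of variation over the 20 hearts was 2.19%, where counting alone gives 1.57%. *Pfkl* ran from 1644 to 2808 read pairs with a coefficient of 16.2%.

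*Pfkm* held 1.33 read pairs per exonic base, above 99.5% of the tested genes, in a table from which duplicate reads had been removed. The 270 genes at 1 or more read pairs per base had a median coefficient of variation within diets of 3.31%, against 21.6% in the 6594 genes under 0.1. In the 1160 genes at 0.5 to 1, where *Pfkl* lies, the median was 6.97%. For *Pfkl* itself it was 9.47% in control and 9.01% in IDA hearts. No gene exceeded 2.16 read pairs per base. *Pfkl* was at 0.595 read pairs per base and *Pfkp* at 0.294, and the PFKFB genes lay between 0.0336 and 0.230. Unscaled, the log2 ratio of IDA to control was 0.03 for *Pfkm* and 0.38 for *Pfkl*. With the library total as a covariate the *Pfkm* value was -0.02. The level of *Pfkm* in CPM and RPKM is therefore given with this limit. How duplicate removal entered the levels and the spread of *Pfkm* and *Pfkl* was not tested.

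**Figure D2:**
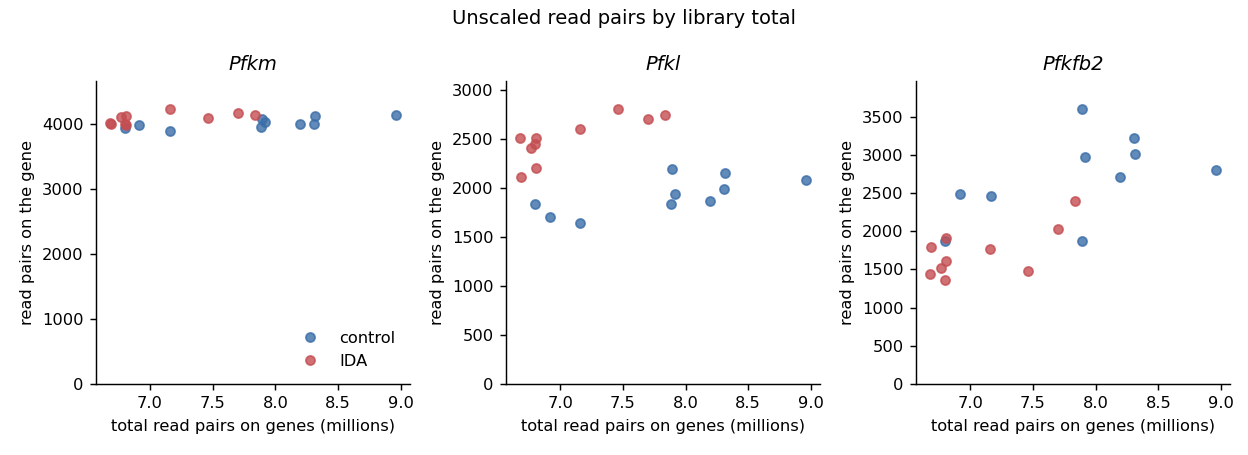
Unscaled read pairs on *Pfkm*, *Pfkl* and *Pfkfb2* (y axes from 0) against the total read pairs on genes (x axis), with a point for each heart coloured by diet. *Pfkm* stays between 3892 and 4240 over the whole range of totals. *Pfkl* runs from 1644 to 2191 in control and from 2107 to 2808 in IDA hearts, and *Pfkfb2* spreads from 1367 to 3608.

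The makeup of the PFK-1 transcripts was computed in each heart as the share of read pairs per exonic base, a measure that needs no scaling between libraries. *Pfkm* made up 62.8 ± 2.00% in control and 57.5 ± 2.68% in IDA hearts (SD, n = 10 each). *Pfkl* made up 24.6 ± 1.22% and 28.8 ± 1.153%, with ranges of 22.7 to 26.8% and 26.2 to 29.8%. *Pfkp* made up 12.6 ± 1.146% and 13.7 ± 2.12%.

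The muscle subunit was the main PFK-1 transcript in every heart of both diets. The ranges of the *Pfkl* share touched, since the lowest IDA heart was below the highest control heart. The ratio of *Pfkl* to *Pfkm* read pairs was 0.478 ± 0.0374 in control and 0.612 ± 0.0483 in IDA hearts. The narrow range of *Pfkm* counts enters all of these shares. IDA replicate 4 had the highest *Pfkp* share, at 18.6%.

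**Figure D3:**
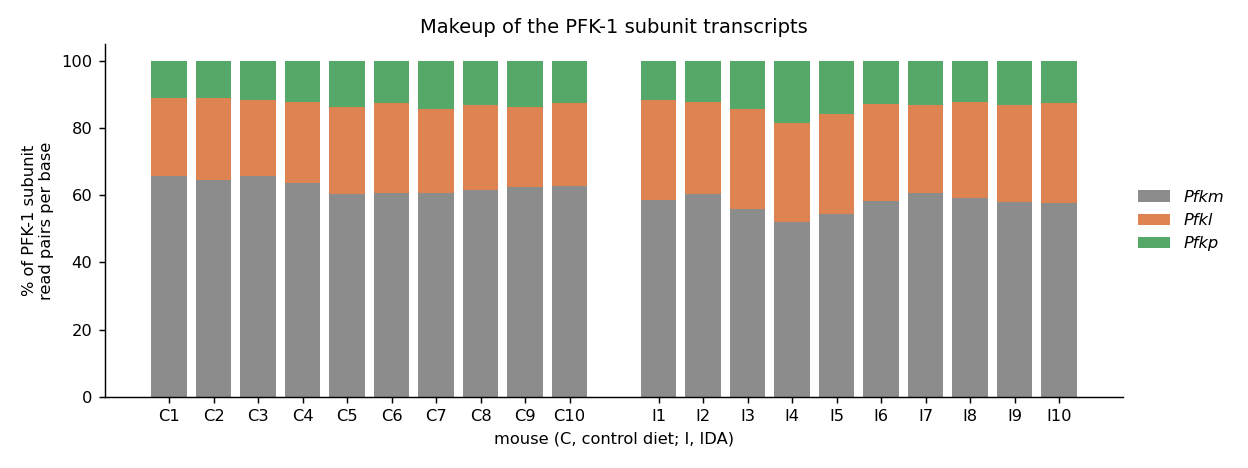
Share of each PFK-1 subunit in the read pairs per exonic base (% of the 3 subunits, y axis) in each of the 10 control (C) and 10 IDA (I) hearts as stacked bars. The *Pfkl* segment averages 24.6% in control and 28.8% in IDA hearts, and *Pfkm* is the largest segment in every bar.

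The PFKFB genes divided, with *Pfkfb2* and *Pfkfb3* lower in IDA hearts and *Pfkfb4* slightly higher. *Pfkfb2* (chr1:130689043-130729253, minus strand), the isoform of cardiac muscle that is switched towards synthesis by Akt, AMPK and protein kinase A, was at 232, 362 and 473 CPM in control hearts. In IDA hearts *Pfkfb2* was at 185, 235.9 and 299 CPM. No IDA heart reached the control mean and 4 lay below the lowest control heart, while the ranges overlapped. The log2 fold change was -0.55 ± 0.10. Exons of *Pfkfb2* share 154 bases with *Yod1*.

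*Pfkfb3* (chr2:11471431-11553929, minus strand), whose product has far more kinase than phosphatase activity, was at 23.5, 26.6 and 56.3 CPM in control hearts. In IDA hearts *Pfkfb3* was at 12.2, 18.0 and 24.9 CPM, and 9 of 10 were below the lowest control heart. The log2 fold change was -0.72 ± 0.15. Without control replicate 9, the heart at 56.3 CPM, it was -0.57. The *Pfkfb3* values rest on 83 to 452 read pairs per heart.

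*Pfkfb4* (chr9:108991902-109032225, plus strand), also described in tumour cells under low oxygen, was at 10.2, 14.5 and 19.3 CPM in control hearts. In IDA hearts *Pfkfb4* was at 14.7, 17.5 and 18.4 CPM. Each IDA heart was above the control mean and none above the highest control heart. The log2 fold change was 0.22 ± 0.09, and these values rest on 83 to 157 read pairs per heart.

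*Pfkfb1* (chrX:150589921-150643860, plus strand) was at 19.5, 27.7 and 35.5 CPM in control hearts. In IDA hearts *Pfkfb1* was at 8.25, 22.6 and 29.5 CPM, with 3 hearts below the lowest control heart and the others among the controls. The log2 fold change was -0.37 ± 0.18, and these values rest on 66 to 315 read pairs per heart.

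Within the PFKFB group the share of *Pfkfb4* per base averaged 7.04% in control hearts (4.94 to 9.04%, n = 10) and 11.3% in IDA hearts (9.503 to 16.4%, n = 10). Its ranges did not overlap. *Pfkfb2* stayed the largest share on average, with 58.3 ± 6.64% and 54.6 ± 5.13%. The ratio of *Pfkfb4* to *Pfkfb3* read pairs was 0.522 ± 0.120 in control hearts (0.305 to 0.701) and 1.00 ± 0.201 in IDA hearts (0.734 to 1.38). This ratio too separated the diets without overlap, and it depends on neither the library total nor the other genes. Gene length does enter it, since the fitted fold change at the length of *Pfkfb3* was -0.32 and at that of *Pfkfb4* -0.10 (log2, trend given below). How often the ratios of other gene pairs separate the diets was not examined.

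Of the 7 members, 4 passed edgeR's test (Benjamini-Hochberg adjusted p below 0.05) on the higher side (*Pfkl*, *Pfkm*, *Pfkp*, *Pfkfb4*), 2 on the lower side (*Pfkfb2*, *Pfkfb3*), and *Pfkfb1* did not. Of all 13590 genes, 67.5% passed, 35% higher and 32.5% lower. At p below 0.01 in both edgeR and DESeq2, 2 members were higher and 2 lower, where 59.8% of all genes passed, 30.6% higher and 29.2% lower. The diet difference chose the family, so these counts are a record only. The median log2 fold change was 0.12 over the members and 0.02 over all genes tested.

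Fold change ran with gene length across the whole table, which touches the members unequally because their exonic lengths run from 1721 bases in *Pfkfb1* to 9621 bases in *Pfkfb2*. The 1362 genes of shortest exonic length had a median of 0.34 on the log2 scale, whereas the 1358 longest had one of -0.53. A curve of fold change on length was fitted in each mouse and removed. The *Pfkfb2* value was then 0.05 ± 0.07, since genes of its length had a fitted value of -0.60. At its own length, the lower level of *Pfkfb2* was that of other genes.

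*Pfkl* was at 0.62 ± 0.05 after this correction and *Pfkp* at 0.55 ± 0.06, both further from 0 than before. *Pfkfb3* kept its direction at -0.40 ± 0.13. *Pfkfb1*, the shortest member, was at -0.53 ± 0.18, and *Pfkm* and *Pfkfb4* were at 0.18 ± 0.06 and 0.33 ± 0.09. After correction *Pfkfb2* was no longer and *Pfkfb1* was newly among the members that passed, 4 higher and 2 lower, where 55% of all genes passed, 31.5% higher and 23.5% lower. These counts too are a record only. The correction removes any trend on length, and whether the trend arose in the hearts or in the handling of RNA was not tested.

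**Figure D4:**
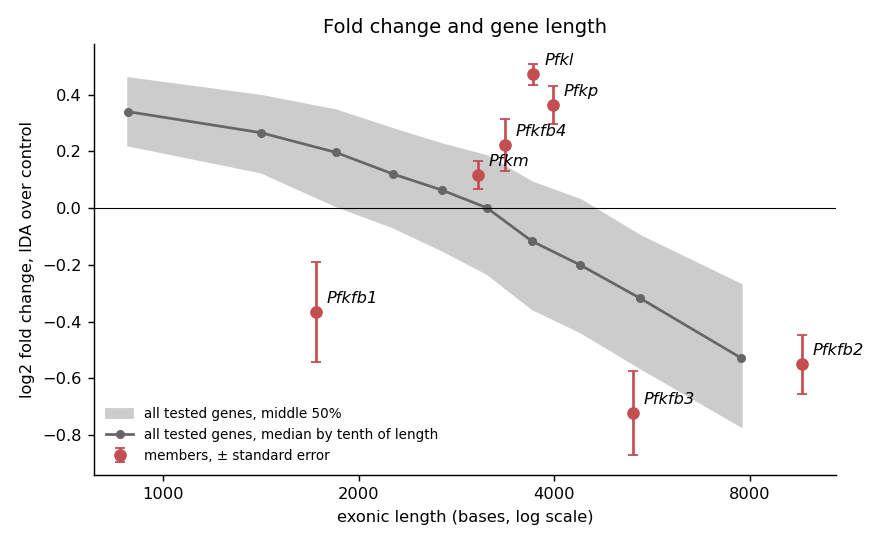
Log2 fold change of IDA over control (y axis) against exonic length (bases, log scale) for the 7 members with their standard errors, over the median and middle 50% of all tested genes in bins of length. The line falls from 0.34 to -0.53, *Pfkfb2*, longer than the last bin's median, lies level with its end, *Pfkl* and *Pfkp* lie above it, and *Pfkfb1* and *Pfkfb3* lie below it.

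The libraries carried numbers in 2 separate runs, a first with 5 control and 7 IDA hearts and a second with 5 control and 3 IDA hearts, and each diet difference was computed within each run. *Pfkl* was at 0.52 in the first run and 0.38 in the second, on the log2 scale. *Pfkfb2* was at -0.52 and -0.54, and *Pfkfb3* at -0.84 and -0.61. *Pfkp* was at 0.41 and 0.21 and *Pfkfb1* at -0.41 and -0.34. *Pfkm* and *Pfkfb4* did not keep a like value, with *Pfkm* at 0.21 and -0.01 and *Pfkfb4* at 0.03 and 0.46. The labels do not say what the numbers stand for.

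**Figure D5:**
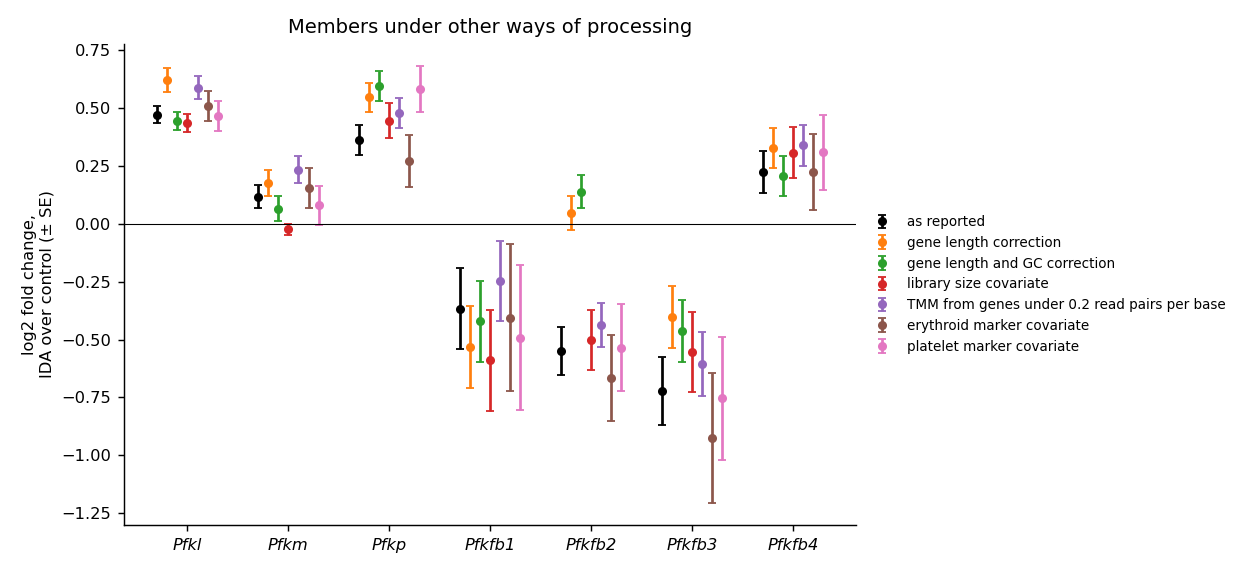
Log2 fold change of IDA over control (± SE, y axis) of each member as reported and under 6 other ways of processing, by colour. *Pfkl*, *Pfkp* and *Pfkfb4* stay above 0 and *Pfkfb1* and *Pfkfb3* below 0 in all of them, *Pfkm* reaches -0.02 with the library size covariate, and *Pfkfb2* reaches 0.05 and 0.14 with the corrections for gene length and for length and GC content.

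Within a diet, *Pfkl* was compared with the other 6 members over the 10 hearts, 12 relations in all, on log2 CPM. None passed after adjustment (two-sided permutation tests, 100000 resamples, lowest adjusted p = 0.368). None had an unadjusted p below 0.05 by Pearson's r and 1 did by Spearman's rho. The largest was with *Pfkfb3* in IDA hearts (r = -0.62, permutation p = 0.0559, rho = -0.53, permutation p = 0.122), and r was -0.60 without the 2 hearts farthest from the median of *Pfkl*. For *Pfkfb2* in IDA hearts r was -0.61 (permutation p = 0.0613) and rho was -0.66 (permutation p = 0.0440), and r was -0.68 without 2 hearts. In the 7 IDA hearts of the first run, *Pfkfb3* had r = -0.77 (permutation p = 0.0440, adjusted p = 0.264 over 6 relations). With 10 hearts a relation of this size could not be separated from the spread between mice.

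The genes whose levels ran most like those of *Pfkl* over all 20 hearts were *Prpsap1*, *Pmm2*, *Aars*, *Ndufa4l2* and *Lrp10*, each with Pearson's r = 0.97 on log2 CPM. The diets form separate clusters for *Pfkl*, so this likeness is carried by the diet difference and no test was made of it. In deviations from the diet means over the 20 hearts, the closest were *Pmm2* (r = 0.85), *Rasl10b* (r = 0.84), and *Hmg20b*, *Abcb6* and *Def8* (r = 0.83 each). No member of the family was among them. *Pfkp* ranked 2732 of 13589 genes over all hearts and 5864 in deviations from the diet means.

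Outside the family, the other enzymes of glycolysis were more often higher than lower in IDA hearts, a balance that turned to 4 higher and 5 lower with the correction for gene length and GC content, and they had log2 fold changes below that of *Pfkl* except for *Bpgm*. Of 21 listed genes 18 were tested, of which 12 rose, 2 fell and 4 did not pass (edgeR's quasi-likelihood test, adjusted over all 13590 genes). Of all genes, 35% were called higher and 32.5% lower. The median log2 fold change of the list was 0.16, beside 0.02 for all genes tested. *Aldoc*, *Eno1* and *Pklr* were not tested because of low counts.

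*Bpgm*, which makes the 2,3-bisphosphoglycerate of red cells, rose most, from 71.0 to 124 CPM on average, by 0.80 ± 0.13 on the log2 scale (edgeR adjusted p = 1.71e-05). The erythroid markers rose as well. With their level as a covariate 6 of the 18 glycolysis genes passed instead of 14, while all genes that passed went from 9177 to 6915. The diets did not overlap in the erythroid level, so it and diet cannot be fully told apart. *Gapdh* rose by 0.41 ± 0.12 and *Pgk1* by 0.24 ± 0.05, but both have many near-identical pseudogenes and *Gapdh* was counted at only 7.72 CPM in control hearts, so their values are uncertain. *Ldha*, which makes lactate, rose by 0.22 ± 0.04 (edgeR adjusted p = 0.000172). *Aldoa* and *Ldhb*, a splitting enzyme and the heart form of lactate dehydrogenase, rose least, by 0.15 ± 0.05 each. With the correction for gene length *Ldha* (0.09), *Pgk1* (0.09), *Gapdh* (0.15), *Aldoa* (0.0059) and *Ldhb* (-0.09) no longer passed, and *Ldhb* changed sign.

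Among the genes that fell, *Hk2*, the insulin-responsive hexokinase, was at 501 and 446 CPM, with a log2 fold change of -0.17 ± 0.04 (edgeR adjusted p = 0.000744). With the correction for gene length *Hk2* turned to 0.17 (edgeR adjusted p = 0.000368). In that fit 5 of the 18 rose and 2 fell, where 31.5% of all genes were higher and 23.5% lower, and the median was 0.06.

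Genes of the kinases that act on PFKFB2 and of the opposing phosphatases divided by gene rather than as a group. Of 16 listed genes 15 were tested, with 5 higher, 6 lower and 4 that did not pass (edgeR, adjusted over all genes), and a median log2 fold change of -0.01. That is 11 of 15, where 67.5% of all genes passed. *Pdpk1*, the kinase that activates Akt, fell most, from 151 to 78.5 CPM, a log2 fold change of -0.95 ± 0.11 (edgeR adjusted p = 3.76e-07). The catalytic AMPK subunits fell too, with *Prkaa2*, the heart and muscle form, at -0.69 ± 0.09 and *Prkaa1* at -0.65 ± 0.07. The scaffold subunit *Prkab2* fell as well, at -0.53 ± 0.07.

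For *Pdpk1*, *Prkaa1* and *Prkacb*, a catalytic subunit of protein kinase A named here after its values were seen, every IDA heart lay below every control heart, a pattern found in this direction in 6.28% of all genes. The highest were the small AMPK subunits *Prkag1* (0.21 ± 0.04) and *Prkab1* (0.18 ± 0.06) and the kinases *Akt2* (0.17 ± 0.04) and *Akt1* (0.10 ± 0.04). The lower genes have long exons, from 4261 bases in *Prkab2* to 8201 bases in *Prkaa2*. After the length correction 2 of the 15 rose and 6 fell, with *Pdpk1* at -0.49, where 31.5% of all genes were higher and 23.5% lower. *Prkag1* (0.03) and *Prkab1* (0.08) then no longer passed. *Fbp2*, the muscle fructose-1,6-bisphosphatase that reverses PFK-1, was at 0.07 ± 0.12 (edgeR adjusted p = 0.626), and *Fbp1* was not tested. *Tigar*, listed as 9630033F20Rik, which degrades fructose 2,6-bisphosphate, was at -0.06 ± 0.05 (edgeR adjusted p = 0.306).

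Among 20 genes known as HIF targets, 9 rose, 2 fell and 9 did not pass (edgeR, adjusted over all genes), and the median log2 fold change was 0.20. That is 11 of 20, where 67.5% of all genes passed. The members *Pfkl*, *Pfkfb3* and *Pfkfb4* were left off this list. *Ankrd37* was the highest, at 7.14 and 14.2 CPM (0.99 ± 0.11, edgeR adjusted p = 2.63e-07), followed by *Slc16a3*, the lactate exporter MCT4 (0.94 ± 0.16), *Egln3*, an oxygen-sensing prolyl hydroxylase (0.74 ± 0.07), and *Ndufa4l2* (0.60 ± 0.06).

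In these 4 the diets did not overlap, a pattern found in this direction in 4.97% of all genes. The lowest that passed were *Kdm3a* at -0.16 ± 0.07 (edgeR adjusted p = 0.0457) and *Pdk1* at -0.11 ± 0.04 (edgeR adjusted p = 0.0290), then *P4ha2* at 0.17 ± 0.05 and *P4ha1* at 0.21 ± 0.06. With the length correction 12 of the 20 rose and none fell, where 55% of all genes passed, 31.5% higher and 23.5% lower. *Kdm3a* then turned to 0.12 (edgeR adjusted p = 0.0233), *Pdk1* turned to 0.20 (edgeR adjusted p = 0.000337), and *P4ha2* no longer passed. *Pfkfb3*, at -0.72 before and -0.40 after that correction, lay below each of these 20 genes in both.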

How the data were processed

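Poly(A) RNA from whole hearts of 20 mice was sequenced in pairs of 75-base reads. Per the submitters' notes and the study's methods, reads were aligned to mm10 with STAR, duplicates were removed with samtools, and pairs were counted on exons by gene name with featureCounts (1.4.5-p1 in the file header), without strand. The table that the authors deposited holds raw read-pair counts and exonic lengths. The study excluded a mouse per diet for contamination without naming it, so all 20 were kept.

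Counts were analysed in R 4.3.3 with edgeR 4.0.16 (TMM scaling, quasi-likelihood test, diet as the only term) after a filter of 1 CPM in 10 mice. Adjusted p-values are Benjamini-Hochberg over 13590 genes. DESeq2 1.42.0 was run as an alternative. RPKM values used the deposited exonic length, and log2 CPM a prior count of 2. For the length correction, a mouse-wise loess fit on log2 exonic length (span 0.5, degree 1) was removed. Permutation tests were run in Python 3.11.15 with scipy 1.17.1. Scripts were tested on simulated data. Precision is limited by counting for genes with few read pairs, and no pair of libraries of a diet agreed within sampling noise (chi-square per degree of freedom 1.50 to 15.4 over 90 pairs).

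The genes named are all 7 members, the 4 highest and 4 lowest that passed in each list, *Fbp1*, *Fbp2* and *Tigar*, and the 5 genes most like *Pfkl* by each measure, except a glycolysis gene that is not reported here. The members and lists were chosen with earlier results of these data known. Alternatives covered scaling, filters, tests, length and GC corrections, covariates, the replicate number as a block and leaving out mice. After the data were seen, the library number runs, the platelet covariate, scaling from genes below 0.2 read pairs per base and the omission of control replicate 9 for *Pfkfb3* were added. P-values measure the spread between mice as labelled, and take no account of shared cages.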

Additional observations from a re-analysis of the deposited data

Results flagged for a closer look

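Control replicate 9 stood far above the other control hearts for *Pfkfb3*, at 56.3 CPM, where the next control heart was at 28.5 CPM and the median of the 10 was 26.6 CPM. The gap made up 0.848 of the range of the group, against a critical value of 0.466 in Dixon's test. It was the only value past the critical value among 20 groups examined, and chance gives about 1 such pass in 20. That rate is for passing 0.466, not for a gap of 0.848. The groups are not independent, since the shares use the same counts as the CPM values. The same mouse had the lowest control value of *Pfkl*, at 232.8 CPM. Without this mouse the *Pfkfb3* log2 fold change was -0.57 in place of -0.72, and its direction was the same. No explanation of the value was tested.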

How the results depend on the processing

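Of 127 alternative values for the members' fold changes, 110 moved by less than the spread between mice. Another 12 moved by at least that spread, towards 0 or away from it, without a change of sign, and 5 changed sign. For none of the values below was the cause tested. *Pfkl* was 0.62 with the length correction, with or without the block, 0.59 with scaling from genes below 0.2 read pairs per base (which moved the median of all genes from 0.02 to 0.14) and 0.38 in the second run of library numbers. *Pfkm* was -0.023 with the library size covariate, -0.0088 in the second run and 0.23 with scaling from those low genes. *Pfkp* was 0.55 with the length correction, 0.54 with the block added, 0.60 with length and GC, 0.58 with the platelet covariate and 0.21 in the second run. *Pfkfb2* was 0.047 with the length correction, 0.052 with the block added and 0.14 with length and GC. *Pfkfb3* was -0.38 with the block and length, and *Pfkfb4* was 0.46 in the second run. Leaving out a mouse of each diet in 100 fits kept every sign, with *Pfkl* from 0.44 to 0.50, *Pfkm* from 0.07 to 0.16, *Pfkp* from 0.28 to 0.41 and *Pfkfb3* from -0.83 to -0.52. Glycolysis genes that passed numbered 14 as reported, 7 with length, 9 with length and GC (4 higher, 5 lower), 8 with library size, 6 with erythroid and 4 with platelet covariates, and 5 with block and length. In the kinase list 11 became 6 with length and GC, 7 with library size, 5 with the platelet covariate and 7 with block and length. HIF targets went from 11 to 7 with either the erythroid or the platelet covariate. All genes that passed went from 9177 to 4803 with the platelet covariate and to 6915 with the erythroid covariate. They numbered 7474 with length, 6421 with length and GC, 7913 with library size and 6990 with block and length. Ranked by raw read pairs, 3 of 7 members kept their place in control hearts. Length-corrected correlations with *Pfkl* gave 0 of 12 past adjustment, but *Pfkm* in IDA hearts had r = 0.87 once 2 hearts were left out (permutation adjusted p = 0.0262).

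Replicate numbers are shared by the diets. Deviations of same-numbered mice correlated at -0.28 to 0.26, with 3 of 10 pairs over 0.1 and 3 of 10 mice closest to their own number. These correlations are weak, but 10 pairs cannot decide whether the numbers pair mice. With the replicate number as a block, *Pfkl* was 0.47, *Pfkm* 0.12, *Pfkp* 0.35, *Pfkfb1* -0.41, *Pfkfb2* -0.54, *Pfkfb3* -0.70 and *Pfkfb4* 0.24, and 8912 of all genes passed. *Pfkfb4*, at 83 to 157 read pairs per heart, *Pfkfb1*, at 66 to 315, and *Pfkfb3*, at 83 to 452, are limited by counting. *Pfkm* is limited by its narrow range of counts per base.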
